A study of Mus musculus with 2 samples.

Results

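Platelet and megakaryocyte like barcodes are barcodes of a nuclear RNA library from mouse heart that carry RNA of blood platelets or of their parent cell, the megakaryocyte. A barcode is the droplet label that stands for 1 nucleus or cell, and a unique molecular identifier (UMI) marks 1 captured RNA molecule. A barcode was a member when at least 200 genes had a UMI, when at least 2 of 7 platelet genes (Ppbp, Gp9, Itga2b, Gp1bb, Treml1, Tubb1 and Clec1b) had a UMI, and when the macrophage genes Csf1r, Mrc1 and F13a1 together had at most 2 UMIs. There were 83 members among 26334 barcodes, 71 in the library of CF-KI mice and 12 in the control library. The members were thus chosen by measured UMIs of these genes, whose levels are given as a description and support nothing else.

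Platelets are cell fragments without a nucleus that are shed into the blood by megakaryocytes, large polyploid cells of bone marrow and lung. They keep mitochondria and a stock of messenger RNA made by the megakaryocyte, dominated by transcripts of adhesion receptors, granule chemokines and the actin and tubulin cytoskeleton. At a vessel wound they bind von Willebrand factor and collagen, release their granules and aggregate through the integrin that Itga2b and Itgb3 encode.

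The study profiled cardiac tissue with the 10x Genomics 3′ v3 kit, with nuclear RNA as the labelled molecule. Both groups were male C57Bl6/J mice aged 3.5 months that carried the Tcf21-MerCreMer driver, a tamoxifen-dependent Cre recombinase under a promoter used for fibroblasts, and both received tamoxifen. CF-KI mice were homozygous for Nlrp3-A350V, an activating allele of the inflammasome sensor NLRP3 meant for fibroblasts, and control mice had wild-type Nlrp3. By the series text the allele stays silent where Cre is not active, and platelets are not among the cells the driver is meant for. Each group had 1 library, and the number of animals behind it is not stated. Every difference below is therefore between 2 libraries, without a replicate check or a test. All intervals are 95% intervals that cover counting error only, or for medians the spread over members.

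The libraries held 21603653 UMIs in 15077 barcodes (CF-KI) and 18040776 UMIs in 11257 barcodes (control), and 14967 and 11196 barcodes had at least 200 genes. Median depth was 1115 and 1158 UMIs per barcode. Median mitochondrial share was 14.2% and 3.46%. The libraries shared 46 barcode sequences, and no member was among them. Levels are given as CPM, in which a gene is scaled by all non-mitochondrial UMIs of the same barcodes. Haemoglobin RNA, which in heart tissue comes with blood, had 17019 CPM in the CF-KI barcodes outside the members and 1133 CPM in those of the control. Without the barcodes that consisted mostly of haemoglobin RNA (82 and 4) it had 1985 and 531 CPM. Airway RNA was almost confined to the control library, where the non-member barcodes held 24281 UMIs of 6 airway genes against 23 in CF-KI.

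Members made up 0.474% of the CF-KI barcodes with at least 200 genes (71 of 14967, exact binomial interval 0.371 to 0.598%) and 0.107% of the control barcodes (12 of 11196, 0.0554 to 0.187%). The difference was 0.367 percentage points (square-and-add interval 0.236 to 0.501) and the ratio was 4.43-fold (2.38 to 8.97). In CF-KI, 28 members had 2 of the 7 genes, 23 had 3 and 20 had 4 or more. In the control the numbers were 2, 6 and 4. The ratio between the libraries was 10.5-fold (2.64 to 90.7) for members with 2 genes, 2.87-fold (1.14 to 8.61) for those with 3 and 3.74-fold (1.25 to 15.1) for those with 4 or more. These intervals overlap, and the CF-KI library had the larger share at each number. With at most 5% mitochondrial UMIs, a limit that kept 2263 CF-KI and 6837 control barcodes, only 3 and 6 members remained. Their ratio of 1.51 had an interval from 0.244 to 7.07.

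**Figure D1:**
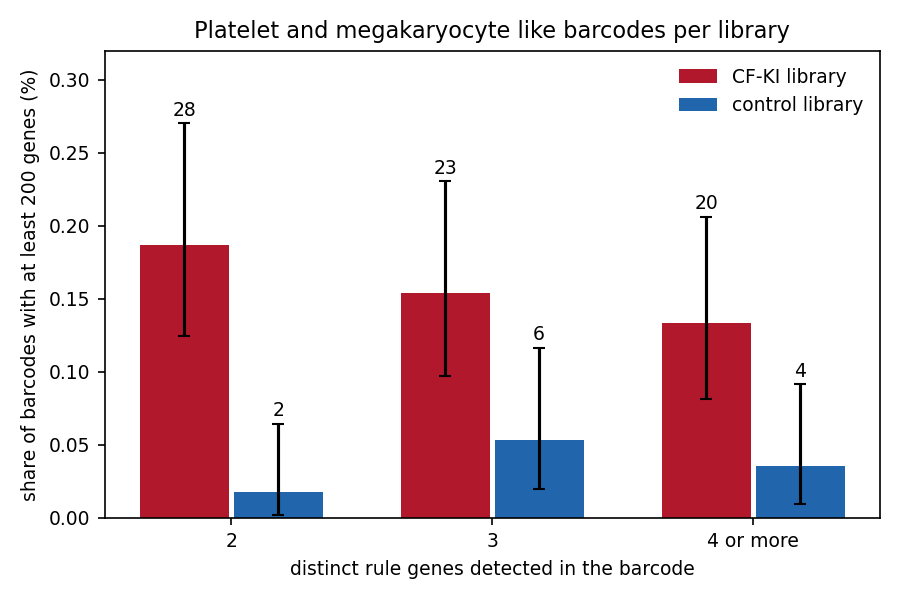
Bars give the share of barcodes with at least 200 genes (%) that had 2, 3 or at least 4 of the 7 rule genes, in the CF-KI and the control library. Lines are exact binomial 95% intervals and numbers above them count barcodes, from 28 against 2 on the left to 20 against 4 on the right.

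Just outside the threshold, 230 CF-KI barcodes (1.54%) and 101 control barcodes (0.902%) had exactly 1 of the 7 genes. Summed over the 7 rule genes, RNA was also more frequent outside the members of CF-KI, with 15.3 CPM against 6.57 CPM in the control. The genes differed in this. Ppbp had 4.84 CPM in the other CF-KI barcodes (82 UMIs) and 0.358 CPM in the other control barcodes (6 UMIs). Itga2b had 3.72 and 3.35 CPM there, and Treml1 had 0.531 and 0.538 CPM. Haemoglobin RNA moved with the share of members as well, as given above, and 82 CF-KI barcodes but 4 control barcodes consisted mostly of haemoglobin RNA. The part of blood RNA outside cells in the share of members was not tested. In these data more platelets in the tissue and more blood left in it cannot be told apart.

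The macrophage limit removed 1 barcode in all, from CF-KI, with 3981 UMIs. No barcode with fewer than 200 genes had 2 of the rule genes. No macrophage rule gene had a UMI in 62 of the 71 CF-KI members and in 9 of the 12 control members. Scrublet, a caller of doublets (2 nuclei under 1 barcode), marked 7 CF-KI members (9.86%) and no control member. It called 15.3% of all CF-KI barcodes and 3.02% of all control barcodes, so that its calls differ between the libraries as a whole.

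The 7 rule genes encode proteins of the platelet surface, granules and skeleton. Ppbp encodes the precursor of the chemokine CXCL7 and had 160 UMIs in 59 CF-KI members and 35 UMIs in 10 control members, 65.8% and 85.4% of all its UMIs in these libraries. Clec1b, the receptor CLEC-2 for podoplanin, had 89 and 15 UMIs, and Gp9, a subunit of the receptor for von Willebrand factor, had 69 and 13. Itga2b encodes the αIIb chain of the fibrinogen receptor. Its 44 UMIs lay in 28 of 71 CF-KI members, and its 27 control UMIs in 10 of 12 members. Treml1, a receptor stored in alpha granules, had 24 and 4 UMIs. Tubb1, the platelet form of β-tubulin, had 23 and 1. Gp1bb had 9 and 1, and its annotated span lies on the same strand as the overlapping Sept5, so its reads may be shared. The pair seen most often together in CF-KI was Ppbp with Clec1b, in 40 of 71 members. In the control Ppbp was joined by Itga2b in 9 of 12 members and by Clec1b in 8.

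The label was checked against 11 platelet genes that the rule does not use, among them Pf4, Gp1ba, Gp5, Gp6, Itgb3, Nrgn, Alox12, F2rl2, P2ry12 and Rgs18. At least 1 of them had a UMI in 66 of 71 CF-KI members (exact interval 84.3 to 97.7%) and in 12 of 12 control members (lower bound 73.5%). The share of barcodes with such a UMI in cardiomyocyte-marked barcodes, a cell type not known for these genes, was 8.57% (CF-KI) and 4.38% (control), although their median depth of 2036 and 2610 UMIs was above that of the members (1175 and 1444). In macrophage-marked barcodes it was 46.0% and 45.5%, mostly from Pf4, which had a UMI in 38.6% and 42.0% of them. With every barcode reduced at random to 500 UMIs, the share was 76.1% and 91.7% in members and 3.79% and 3.73% in all other barcodes. At that depth it was 21.7% and 27.0% in macrophage-marked and 2.28% and 0.958% in cardiomyocyte-marked barcodes. Summed over the 11 genes the level was 7208 CPM (6681 to 7766) in CF-KI members and 6104 CPM (5178 to 7147) in control members. That was 76.6-fold (70.0 to 83.8) and 77.1-fold (64.8 to 91.1) the level in the other barcodes of the same library.

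The level of these genes was higher in members with more rule genes. The sum was 2039 CPM in CF-KI members with 2 rule genes, 9014 CPM with 3 and 18433 CPM with 4 or more, against 651 CPM in the barcodes just outside and 73.5 CPM in barcodes with none. In the control the same steps were 1203, 4158 and 17466 CPM, then 149 CPM just outside and 44.0 CPM with none. Median depth did not rise with the number of rule genes. It was 1483, 1001 and 1116 UMIs in CF-KI and 2988, 1444 and 1288 in the control, so that members with 2 were the deepest. As counts, the median per member was 3, 7 and 16 UMIs of the 11 genes in CF-KI and 3.5, 10 and 26.5 in the control. The control level with 2 rule genes rests on 7 UMIs, and the 1 CF-KI member with all 7 rule genes had 3238 CPM. Members with 2 rule genes thus held the least platelet RNA, and 4 of these 28 CF-KI barcodes had no UMI of the 11 genes.

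By role, the receptors described here were sparse. Gp1ba, the chain that holds the site for von Willebrand factor, had 7 UMIs in CF-KI members and 3 in control members. Gp5, of the same complex, had 10 and 4, and Gp6, the collagen receptor, had 8 and 3. The ADP receptor P2ry12 had 16 and 1, the thrombin receptor F2rl2 had 4 and 0, and Itgb3, the partner chain of Itga2b, had 14 and 9. Each of these genes has too few UMIs for a comparison between the libraries, since 3 UMIs correspond to 31.3 CPM in CF-KI members and to 119 CPM in control members.

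Pf4, Nrgn and Alox12 were better covered. Pf4 encodes platelet factor 4, a chemokine of alpha granules, and lies 2371 bases from Ppbp on chromosome 5 (positions 90772435 to 90773383, plus strand, GENCODE vM21 on GRCm38). It had 0 to 23 UMIs per member in CF-KI, with a median of 3, and 0 to 7 in the control, with a median of 4. Nrgn encodes neurogranin, a calmodulin-binding protein, and had 0 to 20 UMIs (median 2) and 0 to 13 UMIs (median 4). Alox12, the 12-lipoxygenase of platelets, had a UMI in 22 of 71 and 5 of 12 members. Pf4 RNA is also present in macrophages: 38.6% of macrophage-marked CF-KI barcodes and 42.0% of those of the control had a Pf4 UMI, while Nrgn was found in 2.57% and 0.555% of them.

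Megakaryocyte genes are known to carry sites for GATA and ETS family factors, and promoters are shown for 3 of the genes in which a match was found. RefSeq promoter sequence (GRCm38.p6) was matched for 15 of the 18 rule and check genes, and the 250 bases before each start were searched on both strands for GATAA and AGGAAG. These motifs can share 1 letter at either end, the G where AGGAAG runs into GATAA or the A where GATAA runs into AGGAAG, which no match printed here does. GATAA was found in 6 of the 15 and in 22.6% of all 32851 promoters in the table. AGGAAG was found in 8 of the 15 and in 29.5% of all. Neither was found in 5 of the 15, which were Ppbp, Gp1bb, Treml1, Nrgn and Alox12. Capitals mark the matches on either strand (TTATC and CTTCCT on the other strand), and a match is a description of the letters, not a bound site. Gp9 (chr6:87777820-87778069, plus strand) held 1 match of each motif, Clec1b (chr6:129397047-129397296, plus strand) held 3 of GATAA, and Pf4 (chr5:90772185-90772434, plus strand) held 1 of AGGAAG.
Gp9: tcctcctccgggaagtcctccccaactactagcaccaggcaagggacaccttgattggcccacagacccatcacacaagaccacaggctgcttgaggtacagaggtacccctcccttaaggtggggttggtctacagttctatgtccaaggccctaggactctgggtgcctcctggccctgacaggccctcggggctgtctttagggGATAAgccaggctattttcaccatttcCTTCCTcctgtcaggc
Clec1b: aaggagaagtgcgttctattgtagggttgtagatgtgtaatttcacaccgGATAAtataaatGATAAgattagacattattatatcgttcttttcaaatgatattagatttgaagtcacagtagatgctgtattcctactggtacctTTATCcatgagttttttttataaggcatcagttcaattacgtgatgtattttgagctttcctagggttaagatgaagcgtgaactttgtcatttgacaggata
Pf4: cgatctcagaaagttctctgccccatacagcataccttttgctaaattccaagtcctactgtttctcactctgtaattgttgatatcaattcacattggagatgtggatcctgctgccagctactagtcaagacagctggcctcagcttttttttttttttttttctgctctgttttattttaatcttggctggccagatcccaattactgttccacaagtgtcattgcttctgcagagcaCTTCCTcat

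Outside the rule, the 10 genes with the highest ratio of members over the other CF-KI barcodes, among 405 genes with at least 30 UMIs in CF-KI members, were Nrgn, Cd226, Alox12, Plek, Pf4, Myl9, Rgs10, Ctla2a, 1810058I24Rik and Prkar2b. Of these, 9 were also among the 20 highest in the control members, where 241 genes had at least 10 UMIs. Prkar2b was not in that ranking, with 3 UMIs in control members. Cd226, an adhesion receptor of platelets and lymphocytes, had 469 CPM (342 to 627) in CF-KI members against 3.25 CPM outside, and 436 CPM (218 to 780) in control members against 1.43 CPM outside. Plek encodes pleckstrin, the main substrate of protein kinase C in platelets, and had 667 and 555 CPM against 10.3 and 6.57 CPM outside. Rgs10, a brake on G protein signals, had 698 and 634 CPM against 13.3 and 11.2 CPM. Myl9, a myosin light chain, had 448 and 555 CPM against 8.32 and 6.87 CPM.

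Ctla2a, an inhibitor of cathepsin L-like proteases, was detected in 66 of 71 CF-KI members and in all 12 control members, at 8573 CPM (7997 to 9179) and 9235 CPM (8087 to 10500). The other barcodes had 194 and 82.4 CPM. Its close relative Ctla2b lies 36707 bases away on chromosome 13, so reads of the pair may be split between them. The long noncoding RNA 1810058I24Rik had 2594 and 2021 CPM against 72.0 and 38.1 CPM outside. Both genes belong to no list used here, and both had higher levels in members with more rule genes. Ctla2a had 2554, 9491 and 22980 CPM in CF-KI members with 2, 3 and at least 4 rule genes, and 3265, 5821 and 26099 CPM in those of the control. For 1810058I24Rik the same steps were 743, 2644 and 7285 CPM, then 516, 1455 and 5421 CPM.

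**Figure D2:**
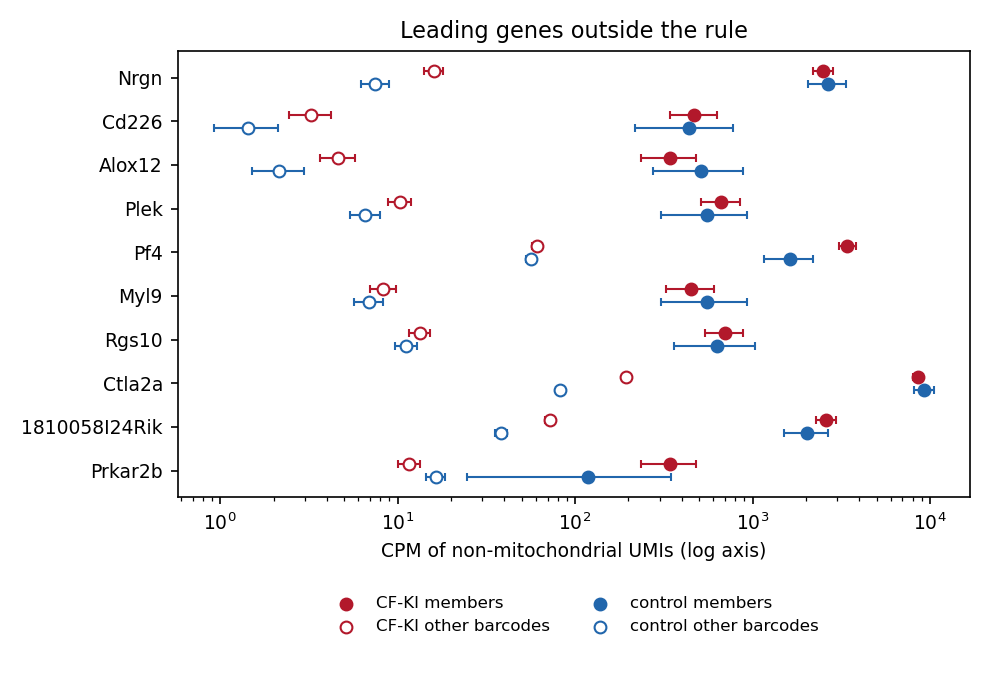
Each row is 1 of the 10 leading genes outside the rule, in CPM of non-mitochondrial UMIs on a log axis. Filled points are members and open points the other barcodes of the same library, with exact Poisson 95% intervals; filled points lie above the open ones in every row.

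Lists of platelet function were summed over all their genes and compared with the other barcodes of the same library. The signalling genes (29 of 30 listed were used) had 7.12 times the level of the other barcodes in CF-KI (6.63 to 7.64) and 6.58 times in the control (5.59 to 7.70). Gng11, a G protein γ subunit, made up the largest part with 392 of 801 UMIs in CF-KI. Surface receptors and adhesion genes stood at 5.05-fold (4.65 to 5.49) and 6.47-fold (5.54 to 7.50), led by the tetraspanin Cd9 with 247 and 77 UMIs. Alpha granule cargo and chemokines, with Nrgn counted among them, stood at 4.94-fold (4.62 to 5.27) and 4.0-fold (3.47 to 4.59). Of their 954 and 204 UMIs, the check genes Pf4 and Nrgn had 329 and 41, and 239 and 67. Cytoskeletal genes stood at 4.57-fold (4.43 to 4.72) and 5.43-fold (5.04 to 5.84). Of their 3926 and 718 UMIs, 2241 and 389 were of Tmsb4x. The sums thus rest largely on a few genes and do not describe each gene of a list. Tmsb4x, thymosin β4, which binds actin monomers, had a UMI in every member and reached 57302 CPM in CF-KI members with at least 4 rule genes and 43365 CPM in those of the control. The other barcodes had 1744 and 792 CPM of it.

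Eicosanoid enzymes stood at 3.56-fold (3.05 to 4.14) and 3.44-fold (2.41 to 4.77). Of their 174 and 36 UMIs, Gpx4 had 99 and 8, and the check gene Alox12 had 33 and 13. Other enzymes of the list were sparse, with 10 and 8 UMIs of Ptgs1, 6 and 2 of Tbxas1 and none of Ptgs2. The list of MHC class I and iron genes stood at 3.80-fold (3.56 to 4.05) and 4.02-fold (3.48 to 4.61), led by the ferritin heavy chain Fth1, with 5427 CPM in CF-KI members and 4756 CPM in control members. Genes that build granules, such as Nbeal2 and the Hermansky-Pudlak genes, had 40 and 16 UMIs in all and stood at 1.11-fold (0.793 to 1.52) and 1.44-fold (0.822 to 2.34). Of this list, 14 of 18 genes had a UMI and none had 20.

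Nuclear factors of megakaryocytes and progenitors stood near the level of the other barcodes. The list of 18 genes stood at 1.03-fold (0.850 to 1.23) in CF-KI and 0.943-fold (0.640 to 1.34) in the control. Gata1, the main erythroid and megakaryocyte factor, had no UMI in CF-KI members, where 3 UMIs would give 31.3 CPM, and 1 UMI in control members, with none in the other barcodes of either library. Gfi1b had none in members of either library, Runx1 had 2 and 2, Fli1 had 9 and 2, and Nfe2, needed for platelet release, had 2 and 0. The most covered genes of the list were Mef2c, with 35 and 8 UMIs, and Cd34, with 23 and 2, which endothelial cells express as well. The proliferation genes Mki67, Top2a, Cdk1 and Ccnb1 had no UMI in any member. Cell cycle genes summed to 36 and 3 UMIs, and 21 and 3 of these were of Ccnd3, a G1 cyclin. The members thus carried platelet RNA, as the label says, while transcripts of nuclear megakaryocyte factors were too few to tell a megakaryocyte nucleus from a platelet.

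**Figure D3:**
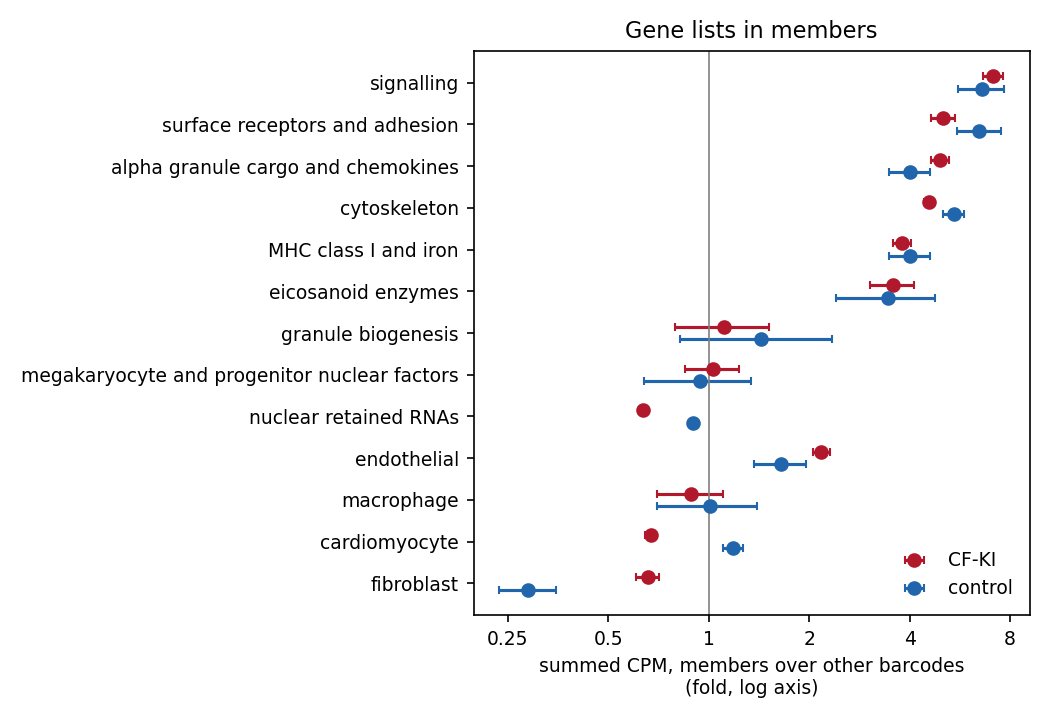
Each row is a gene list, and the x axis gives its summed CPM in members over that in the other barcodes of the same library, on a log axis with exact 95% counting intervals. The rows from signalling to eicosanoid enzymes lie between 3.44-fold and 7.12-fold, and nuclear factors and granule biogenesis have intervals that include 1.

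Malat1, a long noncoding RNA that stays in the nucleus, served as a measure of nuclear content. It made up 12.5% of the non-mitochondrial UMIs of CF-KI members against 22.8% in the other CF-KI barcodes, and 26.7% of those of control members against 30.4%. Malat1 stayed at or below 5% in 34 of 71 CF-KI members (47.9%, 35.9 to 60.1%) and in 19.0% of the other CF-KI barcodes. In the control this held for 3 of 12 members (5.49 to 57.2%) and for 8.30% of the other barcodes. In CF-KI the median share per member was 10.9% with 2 rule genes, 6.52% with 3 and 1.66% with 4 or more. The control medians were 28.9%, 16.7% and 14.5%, over 2, 6 and 4 barcodes.

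Members with more RNA of the 11 check genes tended to have a lower Malat1 share. Spearman's rho was -0.46 over 71 CF-KI members and -0.62 over 12 control members, as a description, since both are shares of the same UMIs and members of a library are not replicates. In CF-KI the members with at least 4 rule genes ranged from 0.331 to 16.2% Malat1. The other nuclear RNAs did not all follow. Neat1 stood at 0.432 times the other barcodes in CF-KI and 0.309 times in the control, while Gm42418, known to overlap a ribosomal RNA repeat, stood at 1.60 and 1.31 times.

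**Figure D4:**
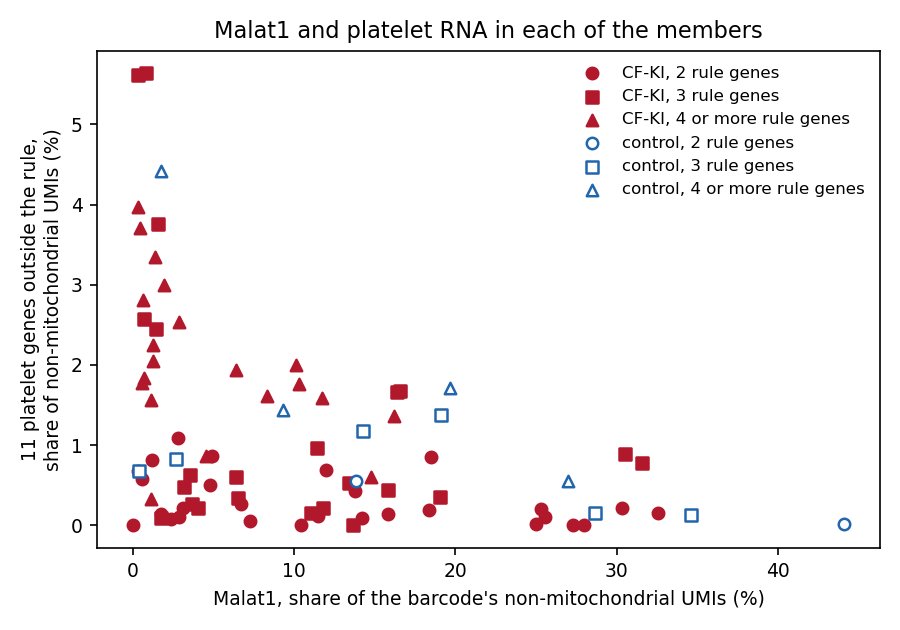
Each point is 1 member, with its Malat1 share on the x axis and the share of the 11 platelet genes outside the rule on the y axis, both in % of non-mitochondrial UMIs. High shares of platelet RNA occur mainly at Malat1 shares below 5%, and markers separate members by library and number of rule genes.

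The mitochondrial share had a median of 14.0% in CF-KI members (up to 63.5%) and 4.97% in control members (up to 37.8%). The other barcodes had medians of 14.1% and 3.43%, so that members followed their library. The medians of the members differed by 9.04 percentage points, and by 5.39 points among members with at least 500 genes.

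RNA of other cell types was present in the members. Endothelial genes summed to 11604 CPM in CF-KI members and 4915 CPM in control members, 2.18-fold (2.05 to 2.31) and 1.65-fold (1.37 to 1.96) the other barcodes, with all 10 genes detected. At least 2% endothelial UMIs were found in 13 CF-KI members and 1 control member. Pericyte and smooth muscle genes stood at 2.84-fold (2.53 to 3.19) in CF-KI and 0.757-fold (0.391 to 1.32) in the control, and 261 of their 301 UMIs in CF-KI were of Rgs5. The highest endothelial count was 164 UMIs in 1 CF-KI member. Without the 13 and 1 members rich in endothelial RNA, 58 and 11 members remained, a ratio of 4.08-fold (2.12 to 8.62).

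Cardiomyocyte genes reached 26208 CPM in CF-KI members and 30003 CPM in control members, 0.670 and 1.18 times the other barcodes, and fibroblast genes reached 0.657 and 0.288 times. Their part in the members was not tested. Macrophage genes outside the rule stood at 0.885-fold (0.699 to 1.11) and 1.01-fold (0.700 to 1.40). Of 13 granulocyte genes only S100a8 had a UMI, and of 8 T and NK cell genes only Trac, each in 1 CF-KI member. Airway genes had no UMI in CF-KI members and 12 UMIs in control members, among them 5 of Scgb1a1. Haemoglobin genes had 1559 UMIs in CF-KI members, and 1 member held 1365 of them. Without that member, which had 14.7% haemoglobin, the erythroid list was lower in CF-KI than in control members (log2 ratio -0.24, -0.61 to 0.14) in place of higher (2.38).

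Members of the libraries were then compared gene by gene, over the 938 genes with at least 20 UMIs in the members together. Levels were pooled over members, so that deep barcodes weigh most. Of 27690 UMIs in control members, 2 barcodes held 9681 and 4770. These barcodes had 11 and 1 of the 154 control UMIs of the 11 check genes. The median log2 ratio of CF-KI over control was 0.39, and 0.26 for the same genes in the other barcodes, so that ratios are read against 0.39. The ratio was at least 1 for 260 genes (27.7%) and at most -1 for 71 genes (7.57%). The split of 260 against 71 was 383 against 25 with TMM scaling and 192 against 131 with Malat1 left out of the scaling. Among the 12 alpha granule genes with 20 UMIs, 2 passed a log2 ratio of 1 (Pf4 and Sparc) and 2 passed -1 (Vwf and Clu), with a median of 0.01. Relative to all genes that median was -0.39, and it turned to 0.48 with at least 3 rule genes, 0.30 with at least 4 and 0.21 over genes with 50 UMIs, so that no direction is read from it. The surface list had 1 of 7 past either limit, both on few UMIs (22 and 1 for Cd63, 14 and 9 for Itgb3), and a median of -0.06. Signalling had 2 of 9 higher (Gng11 and Rap1b) and 1 lower (Tln1), with a median of 0.23. The cytoskeleton had 3 of 18 higher (Pfn1, Cfl1 and Cnn2) and 2 lower (Tln1 and Zyx), with a median of 0.41. Of the 5 MHC class I and iron genes none passed either limit, and the median was 0.42. Genes named here by these counts, other than by the fixed rule for naming, were chosen after their values were seen.

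Pf4 was among the platelet genes that were higher in CF-KI members. Its level was 3427 CPM (3067 to 3818) in CF-KI members and 1625 CPM (1166 to 2204) in control members, a log2 ratio of 1.08 (0.61 to 1.58), while in the other barcodes the ratio was 0.12 (-0.01 to 0.25). With 3 rule genes Pf4 had 4290 and 1455 CPM, and with at least 4 it had 8996 and 3814 CPM. Gng11 had a log2 ratio of 1.04 (0.62 to 1.5) in members and 1.19 (1.12 to 1.26) in the other barcodes. Tmsb4x had 0.60 (0.44 to 0.76) in members and 1.14 (1.11 to 1.17) outside. Over all members, the ratio outside lay above the interval in members for Tmsb4x and inside it for Gng11. For Tmsb4x this depended on the rule: its ratio was 1.25 (1.08 to 1.42) with at least 3 rule genes. With at least 4 it was 0.40 (0.19 to 0.62). Gng11 was at 1.625 (1.185 to 2.093) with at least 3. Ratios above 1 in members were also those of Rap1b, a small GTPase that switches on integrins (1.31, 0.19 to 2.68), Sparc, a matrix protein (1.57, 0.46 to 2.93), and Gpx4, a lipid peroxidase (1.70, 0.67 to 2.95), on 7 or 8 UMIs in control members. Sparc was at 0.86 (-0.41 to 2.41) without barcodes with at least 2% endothelial UMIs and at -1.23 (-3.21 to 0.99) with at least 4 rule genes. Pfn1, Cfl1 and Cnn2 of the cytoskeleton passed 1 on only 2 or 3 UMIs in control members.

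Ctla2a, Nrgn and Cd9 had log2 ratios of -0.11 (-0.32 to 0.11), -0.09 (-0.49 to 0.32) and -0.25 (-0.62 to 0.14). Over all members these intervals lie below the median of all genes (0.39). With at least 3 rule genes the ratios were 0.52 (0.30 to 0.75), 0.48 (0.07 to 0.91) and 0.42 (0.01 to 0.84). The median of all genes was then 0.66 and lay inside each interval, so that no direction is read from these 3 genes. Over all members, TMM scaling adds 0.40 to every ratio and to the median of all genes alike. The signs against 0 thus flip, while the distance to that median does not change. Itga2b is a rule gene, so that its values are a description. It had 458 CPM (333 to 615) in CF-KI members against 1070 CPM (705 to 1557), a log2 ratio of -1.22 (-1.95 to -0.48). Tln1, which encodes talin and switches on integrins, had -1.09 (-1.86 to -0.29), and Clu, clusterin of alpha granules, had -1.16 (-2.07 to -0.20). Vwf had 15 and 20 UMIs. With TMM, the intervals of Tln1 (-0.69, -1.47 to 0.11) and Clu (-0.76, -1.67 to 0.20) reached above 0. Both lay below the median of all genes with TMM (0.79). Itga2b was at -0.82 (-1.55 to -0.08) with TMM, from which nothing is read because the rule used this gene. With at least 3 rule genes Clu was at -0.26 (-1.22 to 0.75).

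**Figure D5:**
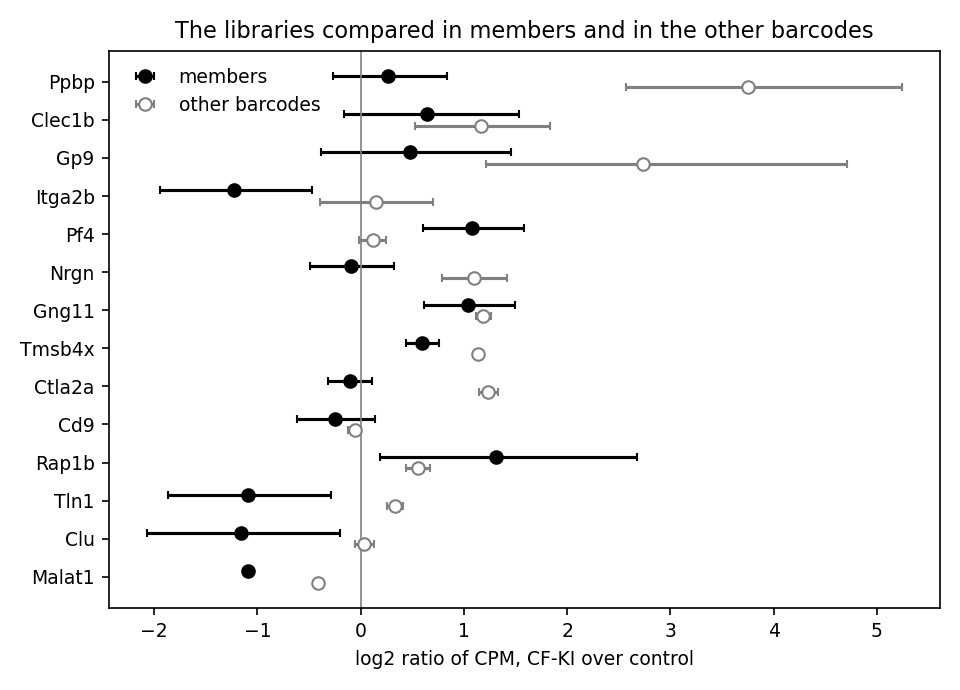
Log2 ratios of CPM, CF-KI over control, for 14 genes, in members (filled) and in the other barcodes (open), with conditional exact 95% intervals. In members Pf4, Gng11 and Rap1b lie above 1 and Itga2b, Tln1, Clu and Malat1 below -1.

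Among genes with at least 50 UMIs in members, the 5 with the highest ratio were Cxcl12 (104 and 2 UMIs), Rgs5 (261 and 6), Cox7b (69 and 2), Hbb-bs (895 and 34) and Ndufa4 (112 and 5). None of them is a platelet gene of the lists. Their log2 ratios in the other barcodes were 1.36, 1.40, 1.93, 3.88 and 1.88, so that each was higher in CF-KI outside the members too. Hbb-bs lies beside the near-identical Hbb-bt, and 820 of its 895 UMIs came from 1 member. Among the 5 lowest were Mycbp2, Itga2b and Mir99ahg, from -1.26 to -1.19. Malat1 had a log2 ratio of -1.09 (-1.13 to -1.05) in members and -0.41 in the other barcodes. Single members held 2327 of its 12045 UMIs in CF-KI and 2953 of its 6735 UMIs in the control. The median Malat1 share per member was 6.42% and 16.7%.

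Nlrp3 had no UMI in any member. At 3 UMIs the limit was 31.3 CPM in CF-KI members and 119 CPM in control members, whereas the other barcodes had 2.36 and 1.2 CPM, so that expression at the level of the tissue was not detectable in so few barcodes. The 14 inflammasome and interleukin-1 genes stood at 1.27-fold (0.998 to 1.59) and 1.17-fold (0.713 to 1.80) the other barcodes, and 51 of their 75 UMIs in CF-KI and 17 of 20 in the control were of Txnip, an inhibitor of thioredoxin. Il1b and Il1a had none.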

How the data were processed

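Both deposited files are sparse matrices of UMI counts that the authors did not normalize. Per the file headers they are output of Cell Ranger 6.1.1, and per the submitters' processing notes the build was mm10. Settings of cell calling are not given in the sources used here. The lowest total was 500 UMIs per barcode in either library. Features sharing a symbol were summed (32285 to 32245), and 99.8% of features matched GENCODE vM21 by identifier. CPM were taken over all non-mitochondrial UMIs of the summed members. Intervals are exact binomial, exact Poisson, conditional exact binomial for ratios and square-and-add for differences. Those for a difference of medians start from the ranks of the members in each library. For list medians 0.5 UMIs were added to each count. Doublets were called with Scrublet in scanpy 1.11.5. For other scalings, R 4.3.3 was used with edgeR 4.0.16 (TMM) and with DESeq2 1.42.0 (size factors).

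The members and the gene lists were chosen with earlier results of these data known. Named genes were the rule genes, up to 6 genes with most UMIs per list of function, the 10 leading genes over other barcodes, the 5 highest and 5 lowest ratios, 2 genes per list of another cell type, Nlrp3 and Malat1; some of these genes are not reported here. Comparison sets were cardiomyocyte-marked (at least 3 UMIs of Ryr2 and of Ttn), macrophage-marked (more than 2 UMIs of the macrophage rule genes) and haemoglobin-dominated barcodes (at least 50% haemoglobin). The code for intervals and ratios was run on simulated counts drawn independently for each gene, which is what the intervals assume. That run cannot tell how they behave where single barcodes hold many of a gene's UMIs.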

Additional observations from a re-analysis of the deposited data

How the results depend on the processing

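No paired analysis was possible because each group had 1 library. Of 1075 combinations of a result and an alternative, 840 of 930 and, for the main comparisons, 99 of 145 stayed within the tolerance of the value reported. The tolerance was its counting interval, or 1.5 times for a count. For a list median it was a band made from the intervals of its genes, and for the median of all genes a fixed band. Where a tolerance includes 0, a value inside it can have the other sign. Of the 145, 45 moved and 1 reversed, and a reversal was counted only where the tolerance left out 0. The alternatives with at least 4 rule genes, without barcodes of at least 2% endothelial or 10% haemoglobin UMIs, and with Malat1 left out of the scaling were chosen after seeing the data. In each case below the cause was not tested beyond the construction of the alternative. The difference in the share of members (0.367 points) was 0.198 with at least 3 rule genes, 0.0979 with at least 4, 0.191 after thinning to 500 UMIs and 0.0448 at up to 5% mitochondrial UMIs. A stricter rule lowers both shares: as a fold (4.43) the same settings gave 3.22, 3.74, 4.06 and 1.51 (0.244 to 7.07).

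The log2 ratio of the 11 check genes between members (0.24) was 0.83 with at least 3 rule genes, 0.58 without endothelial-rich barcodes, 0.64 with TMM, 0.58 with median-of-ratios scaling and -0.0146 without Malat1. Their log2 fold over other barcodes in CF-KI (6.26) was 7.07 with at least 3 rule genes, 7.36 with at least 4, 6.49 at up to 20% mitochondrial UMIs, 6.46 without doublets and 6.62 without endothelial-rich barcodes. In the control (6.27) it was 6.57 with at least 3 and 7.72 with at least 4.

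The median of all genes (0.39) was 0.66 with at least 3 rule genes, 0.29 without endothelial-rich barcodes, 0.26 per all UMIs, 0.79 with TMM, 0.74 with median-of-ratios scaling, 0.14 without Malat1, -0.0019 over genes with at least 5 UMIs and 0.66 over those with at least 50. List medians were compared after subtracting it. The alpha granule list (-0.39) was 0.48 with at least 3 rule genes, 0.30 with at least 4 and 0.21 at 50 UMIs per gene. The cytoskeleton (0.01) was 0.40 at 5 UMIs. Nuclear RNAs (-0.51) were -1.75 with at least 3 rule genes, -0.85 with at least 4, -0.17 without endothelial-rich barcodes, -0.11 at 5 UMIs and -1.34 at 50.

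Genes at least 2-fold higher (260 of 938, 27.7%) numbered 148 of 389 (38.0%) with at least 3 rule genes, 26 of 128 (20.3%) with at least 4, 142 of 633 (22.4%) without endothelial-rich barcodes, 1198 of 4582 (26.1%) at 5 UMIs and 97 of 273 (35.5%) at 50. Genes at least 2-fold lower (71, 7.57%) numbered 27 (6.94%), 13 (10.2%), 42 (6.64%), 877 (19.1%) and 9 (3.30%) in the same order, and of 938 genes 25 with TMM, 31 with median-of-ratios scaling and 131 without Malat1. With at least 4 rule genes Sparc was at -1.23, Ttn at 1.02 and the cardiomyocyte list at 1.54, each opposite to the value over all members. That list was also at 0.20 with TMM and 0.15 with median-of-ratios scaling. Without barcodes of at least 10% haemoglobin, Hbb-bs was at -0.64 and the erythroid list at -0.24. Depth limits the control members most: 12 barcodes with 25231 non-mitochondrial UMIs, where 3 UMIs are 119 CPM.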
